A study of Mus musculus with 9 samples.

Results

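The livers of rats given the 50% methanol extract of Danggui-Shaoyao-San (HME) on top of fructose were compared with those of rats given fructose alone. Danggui-Shaoyao-San is a herbal formula of traditional Chinese medicine. Both groups were male Wistar rats that drank 15% fructose for 8 weeks, and fructose in the drink is a diet model of the metabolic syndrome. The HME group also received the extract by gavage at 1.8 g/kg, and the model group received saline by gavage. The sample labels use DSS for the treated rats, which are named HME rats here because the study's methods give this extract as the one taken to RNA sequencing. The organism field reads mouse, but the strain is a rat strain and every gene carries a rat identifier. Each group held 3 rats, and 3 control rats on water with saline gavage are given as a reference level only. Whole liver was taken after a fast, and messenger RNA was counted per gene. Of the 19686 genes in the table, 12599 had at least 10 counts in at least 3 of the 6 HME and model libraries, and these are the genes described. A gene could pass through 1 group alone, and then it entered only by being high in that group. Examples below are Pnpla5, Sult4a1, Slc14a1, Cyp1a1, Cenpf and Ckap2 through the model rats and Abcg8 and Cyp2c24 through the HME rats.

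The liver takes up most dietary fructose from the portal blood. Its enzymes turn it into trioses below the rate-limiting step of glycolysis, and the trioses feed pyruvate, acetyl-CoA and the synthesis of fatty acids. The carbohydrate sensor ChREBP and the sterol and insulin responsive factor SREBP-1c switch on many genes of this route, while PPARα drives fat oxidation in fasting, LXR drives sterol export, and CAR and PXR drive drug metabolism. Whole liver is mostly hepatocytes, and in such bulk samples fewer cells of a type and less RNA per cell cannot be told apart.

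Hepatocyte RNA dominated every library. The 11 hepatocyte markers in the table, of 12 listed, summed to 182111 to 232534 CPM, counts scaled to the size of the library, in the model rats and to 181839 to 226199 in the HME rats. Markers of other cells were low and their sums overlapped. The 12 of 13 Kupffer cell and macrophage markers in the table summed to 382 to 766 and 497 to 693 CPM, the 11 of 12 endothelial markers to 227 to 519 and 319 to 439, and the 13 of 13 stellate cell and fibroblast markers to 330.2 to 450.1 and 397 to 494. The intestine list was an exception, with 7 of 12 markers in the table and sums of 1086 to 1854 against 411 to 566 CPM, nearly all from Apoa4, which hepatocytes also express. None of the genes called below was on a marker list. Total counts were 14922429 to 26837227 in the model libraries and 18331311 to 21180914 in the HME libraries. Model rat 1, the deepest library, stood apart from the rest, with a first principal component of -49.1 (40.4% of the variance of the 6 libraries) against -8.96 to 25.9 in the other 5. The spread between rats was wider in the model group, with a biological coefficient of variation of 27.4% against 18.8% in the HME group.

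Compared with the model group, few genes passed the threshold in the HME group, and most of these were lower. In edgeR's quasi-likelihood test, at an FDR (Benjamini-Hochberg) of at most 0.01 with a log2 fold change of at least 0.5 either way, 17 of 12599 genes were called (0.135%), 7 (0.0556%) higher and 10 (0.0794%) lower in HME. At an FDR of at most 0.05 there were 57 (0.452%), 15 (0.119%) higher and 42 (0.333%) lower, and "rose" and "fell" below are used only of these. All 57 had groups that did not overlap, as did 1756 (13.9%) of all tested genes, 817 (6.48%) with every HME rat above and 939 (7.45%) with every HME rat below the model rats. A positive fold change was found in 50.1% and a negative one in 49.9% of tested genes. No overlap together with at least a 2-fold difference was found in 2.12% of genes, 0.833% above and 1.29% below. An unadjusted p under 0.05 was reached by 8% of genes. The median log2 fold change of all tested genes was 6e-04. The wider list depended on each rat. Of the 57 genes, 13 kept the call in every fit with 1 rat left out and 44 lost it in at least 1, so for a gene that lost it the highest FDR of these fits follows its own as "at most", with the rat left out. For a gene that did not pass with all rats, an FDR under 0.05 given without 1 rat is the lowest of these fits. The highest for such genes ran from 0.22 for Hcn3 to 0.9998 for Sgk1 and Nr1d1, each without HME rat 1. Between 14 and 42 of the 57 stayed called in each such fit, fewest without HME rat 2 and 36 without model rat 1. Without model rat 1 the calls at 0.05 were 16 higher and 27 lower. Of the 17 genes at 0.01, 14 to 17 stayed at 0.05 in each such fit, and 16 did so without model rat 1, the exception being Mt2A (log2 fold change 3.74, edgeR FDR 0.0952 without model rat 1). An exact permutation test of 3 against 3 rats cannot give a p under 0.1, so the calls rest on the fit across all genes.

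**Figure D1:**
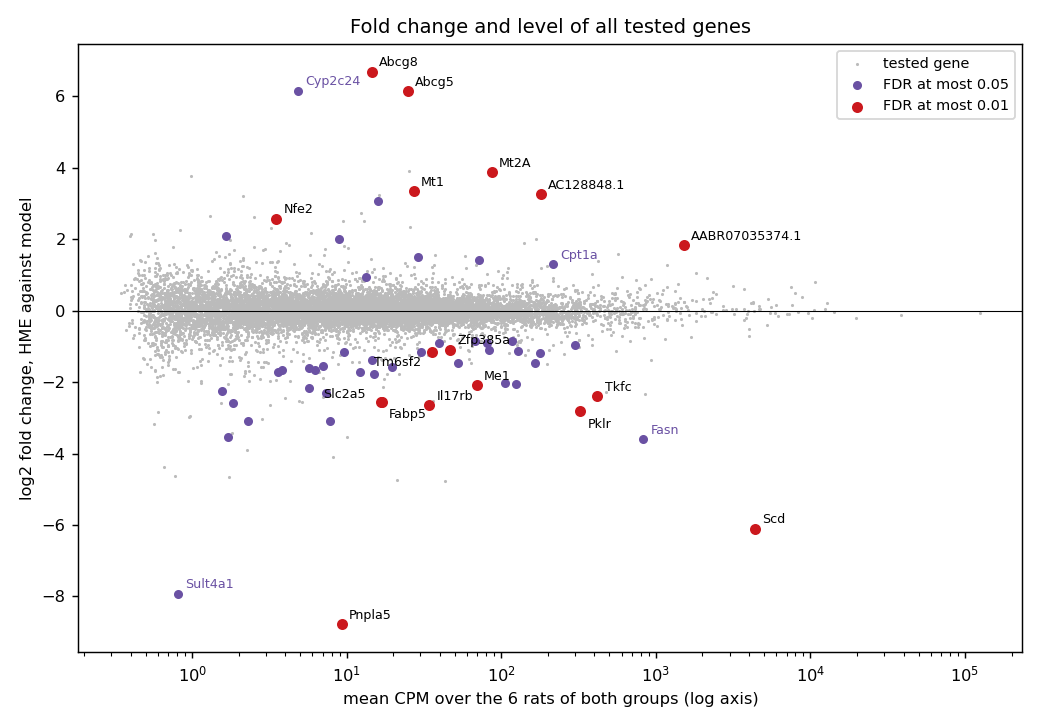
Log2 fold change of HME against model (y axis) against the mean CPM of the 6 rats (x axis, log scale) for all 12599 tested genes, with genes at an FDR of at most 0.05 in purple and at most 0.01 in red. The genes lower in HME outnumber those higher at both thresholds, 42 against 15 and 10 against 7, and range from Pnpla5 and Sult4a1 at the bottom to Abcg8, Cyp2c24 and Abcg5 at the top.

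The first steps of fructose handling were lower in HME. In this and the following comparisons the CPM of model rats 1 to 3 come first, and those of HME rats 1 to 3 follow "against" or "to". Slc2a5, the fructose transporter GLUT5, read 30.2, 22.1 and 33.1 CPM in the model rats and 5.99, 4.92 and 3.67 in the HME rats. Tkfc, the triokinase that phosphorylates glyceraldehyde from fructose, read 716, 619 and 771 against 132, 136 and 133. Both fell without overlap (log2 fold change -2.55 ± 0.24, edgeR FDR 0.00428 for Slc2a5, and log2 fold change -2.39 ± 0.15, edgeR FDR 0.00162 for Tkfc, with ± the standard error here and below). The HME rats lay within a narrow band for Tkfc, far under the control rats at 698, 809 and 839 CPM. Khk, the fructokinase, read 642, 427 and 465 against 273, 239 and 279 CPM. The groups did not overlap, and the gene did not pass the test (log2 fold change -0.95 ± 0.18, edgeR FDR 0.0991). Every HME rat was below the model rats in 5 of the 11 tested genes of the list, against 7.45% of all genes. Among these was the glucose and fructose carrier Slc2a2, while Slc2a8, another hexose carrier, lay above. The median of the list was -0.12, and with 1 rat left out it ran from -0.25 to -0.03.

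Glycolysis pointed the same way. Pklr, the liver pyruvate kinase, fell from 492, 512 and 704 CPM to 62.1, 98.8 and 81 (log2 fold change -2.82 ± 0.23, edgeR FDR 0.00261). Gpi, the isomerase between glucose and fructose 6-phosphate, fell from 272, 190.4 and 268 to 84.6, 92.1 and 89.6 CPM (log2 fold change -1.45 ± 0.17, edgeR FDR 0.0142, at most 0.0975 without HME rat 1), and Eno1, an enolase, from 433, 382 and 373 to 190.1, 207 and 214 (log2 fold change -0.96 ± 0.13, edgeR FDR 0.0326, at most 0.186 without HME rat 2). Dlat, the acetyltransferase of the pyruvate dehydrogenase complex, fell from 44.2, 34.1 and 46.4 to 17.2, 19.5 and 19.1 CPM (log2 fold change -1.16 ± 0.16, edgeR FDR 0.0307, at most 0.175 without HME rat 1). In each of these genes every HME rat was under every model rat. Of the 22 tested genes of glycolysis, 17 had a negative fold change and 10 lay below without overlap, against 49.9% and 7.45% of all genes. In the list 3 fell (Pklr, Gpi and Eno1), against 0.333% of all genes, and none rose, with a median of -0.37. Gapdh (1123, 753 and 739 against 428, 499 and 508 CPM), Pgk1 (292, 206 and 233 against 146, 158 and 157) and Ldha (1947, 1241 and 1172 against 832, 792 and 891) were also under the model rats in every HME rat and did not pass (edgeR FDR 0.184, 0.217 and 0.31). LOC108351137, a gene annotated like Gapdh, fell (log2 fold change -0.91 ± 0.14, edgeR FDR 0.0447, at most 0.22 without HME rat 1), and reads from the near-identical genes can be divided between them. With 1 rat left out the FDR of Pklr reached at most 0.0212 without HME rat 3.

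Glycogen and glucose output genes were lower or overlapped. The glycogen list had 7 of 10 members with a negative fold change, against 49.9% of all genes, and a median of -0.404. None passed, and 4 lay below without overlap, against 7.45% of all genes. These were Gbe1, the branching enzyme (472, 381 and 376 against 204, 263 and 223 CPM, edgeR FDR 0.0998), Pygl, the liver phosphorylase (489, 503 and 620.1 against 356, 373 and 363, FDR 0.279), Gys2, the liver synthase (73.7, 76.4 and 95.4 against 66.7, 65.9 and 52.5, FDR 0.578), and Pgm1, the phosphoglucomutase (208, 165 and 163 against 130.1, 118 and 158, FDR 0.6). In gluconeogenesis none of 10 genes passed and the median was 0.02. G6pc, the catalytic subunit that releases glucose, was variable in both groups, at 932, 416 and 918 CPM in the model rats and 201, 242 and 584 in the HME rats. Mdh1, the cytosolic malate dehydrogenase, read 471, 383 and 367 against 227, 231 and 235 CPM without overlap (edgeR FDR 0.0736).

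The enzymes that supply NADPH and build fatty acids held several genes that fell. Me1, the malic enzyme, read 131, 96.6 and 110.03 CPM in the model rats and 26.4, 28.6 and 24.7 in the HME rats. It fell (log2 fold change -2.08 ± 0.16, edgeR FDR 0.00186). Tkt, the transketolase of the pentose phosphate pathway, had no overlap at 326, 275 and 459.9 against 138, 143 and 177 CPM (edgeR FDR 0.0736, 0.0458 without model rat 2 and 0.306 without HME rat 2). Of 11 genes of the pentose phosphate and NADPH list, 10 had a negative fold change and 6 lay below without overlap, against 49.9% and 7.45% of all genes. In the list 2 fell, Me1 among them, against 0.333% of all genes.

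From citrate onward Acly, Acaca, Fasn and Scd lay lower in every HME rat. Acly, which makes cytosolic acetyl-CoA from citrate, read 924, 401 and 1051 CPM in the model rats against 104, 142 and 243 in the HME rats (edgeR FDR 0.092, 0.0372 without model rat 2 and 0.357 without HME rat 2). Acaca, the carboxylase that makes malonyl-CoA, read 88.5, 227 and 195 against 40.5, 38.1 and 45.9, and Fasn, the fatty acid synthase, 1603, 622 and 2358 against 79.5, 147 and 151. Both fell (log2 fold change -2.04 ± 0.32, edgeR FDR 0.0497, at most 0.225 without HME rat 2, and log2 fold change -3.605 ± 0.498, edgeR FDR 0.0326, at most 0.165 without model rat 1). Scd, the desaturase that makes oleate and palmitoleate, read 8042, 9624 and 8178 CPM in the model rats, 105, 214 and 57 in the HME rats and 8701, 14126 and 11292 in the control rats. It fell (log2 fold change -6.11 ± 0.51, edgeR FDR 0.00261), and the highest HME rat lay far under the lowest of the other 6 animals. Thrsp, a lipogenic nuclear protein, read 1738, 933 and 1617 against 129, 273 and 449 CPM (edgeR FDR 0.0991). In model rat 2 Fasn, Acly, Thrsp and the regulator Srebf1 were each at the lowest value of the model group, while Acaca and Scd were at the highest. Srebf1, at 454, 212 and 608 CPM in the model rats, overlapped the HME rats at 169.9, 219.7 and 242. The list as a whole, with 4 of 18 genes that fell against 0.333% of all genes, had a median of -0.33. The desaturases Fads1 and Fads2, which make polyunsaturated fatty acids, overlapped at log2 fold changes of 0.34 and 0.17. Elovl2 lay above the model rats in every HME rat (60.5, 54.6 and 50.4 against 76.5, 63.5 and 68.4 CPM, edgeR FDR 0.588). The FDR of Scd with 1 rat left out reached at most 0.0364 without model rat 1.

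**Figure D2:**
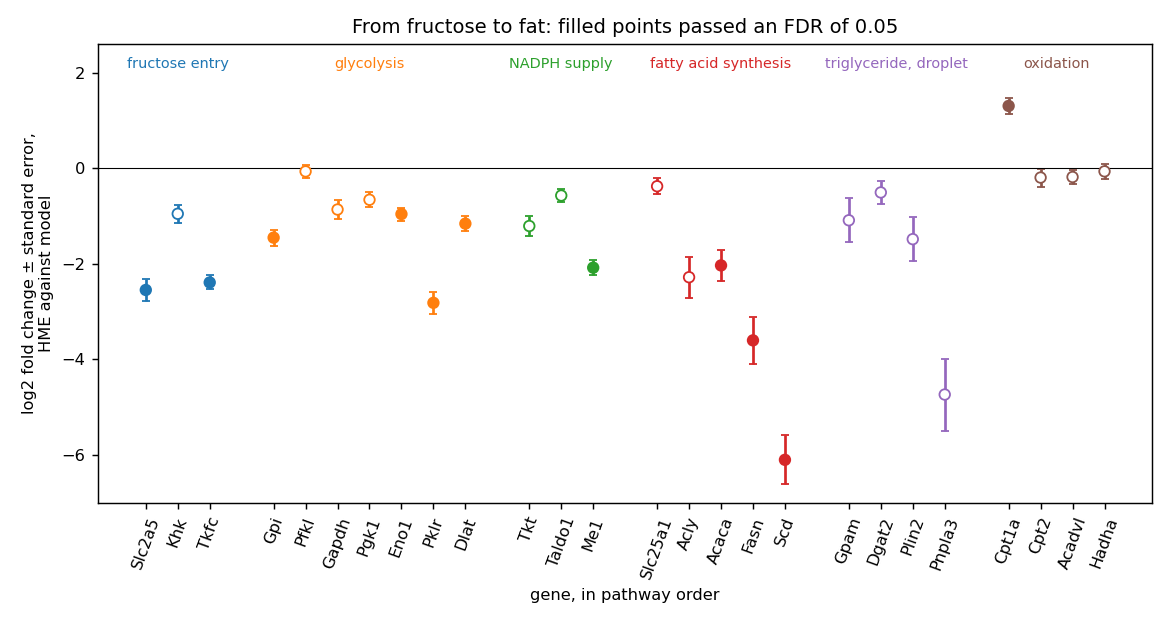
Log2 fold change of HME against model with its standard error (y axis) for genes in pathway order (x axis), coloured by step, with filled points for genes at an FDR of at most 0.05. The lowest points are Scd at -6.11, Pnpla3 at -4.74 (open) and Fasn at -3.605, while Cpt1a at 1.303 is the only point above 0 and the other oxidation genes lie between -0.197 and -0.07.

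Among droplet and triglyceride genes Pnpla5, a patatin-like lipase, fell. It had 683, 278 and 142 reads in the model rats and 0, 1 and 1 in the HME rats, or 29.2, 17.7 and 8.77 CPM against 0, 0.0541 and 0.0517 (edgeR FDR 0.00261). With at most 1 read in an HME rat, its fitted log2 fold change of -8.78 depends on the offset of the fit. Pnpla3, a droplet protein whose human counterpart carries a well-known fatty liver variant, read 67.4, 14.3 and 41.5 CPM in the model rats and 1.198, 0.378 and 3 in the HME rats, without overlap (log2 fold change -4.74 ± 0.75, edgeR FDR 0.0511 but 0.0338 without model rat 2). The control rats spread over 442, 448 and 34.1 CPM for Pnpla3, so its level differed widely between animals of 1 group. In the whole patatin-like family of 6 tested genes, these were the ones without overlap, and the family median was -0.15. Of 26 genes on this list 18 had a negative fold change and 5 lay below without overlap, against 49.9% and 7.45% of all genes. Pnpla5 was the only gene of the list that passed, where 0.452% of all genes did (median -0.23). Plin2, the main coat protein of hepatic droplets, read 412, 124 and 338 CPM against 65.9, 91.3 and 155, and G0s2, an inhibitor of the adipose lipase, 467, 140.1 and 225 against 80.7, 161 and 144. In both the lowest model value, that of model rat 2, lay inside the HME range. Abhd5, the activator of the adipose lipase, went the other way at 67.8, 47.1 and 54.2 against 102, 104 and 71.8 CPM without overlap (edgeR FDR 0.326).

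In fat oxidation the entry step rose. Cpt1a, the carnitine transferase that admits long fatty acids to mitochondria, rose from 140.1, 137 and 98.5 CPM in the model rats to 327, 281 and 319 in the HME rats (log2 fold change 1.303 ± 0.17, edgeR FDR 0.027, at most 0.14 without HME rat 1), with the control rats at 109, 99.8 and 108. The groups did not overlap. Acsl5, an acyl-CoA synthetase of the outer mitochondrial membrane, fell from 251, 207 and 284 to 91.6, 118 and 117 CPM (log2 fold change -1.18 ± 0.17, edgeR FDR 0.0361, at most 0.175 without HME rat 1). Angptl4, a fasting and PPARα responsive inhibitor of lipoprotein lipase, fell from 271, 105 and 225 to 49.4, 42.9 and 52.9 (log2 fold change -2.05 ± 0.32, edgeR FDR 0.0495, at most 0.225 without HME rat 2). Of 39 genes of oxidation and ketogenesis 25 had a negative and 14 a positive fold change, against 49.9% and 50.1% of all genes. The list median was -0.07, and without model rat 1 it was 0.04. The mitochondrial enzymes Acadvl, Hadha and Cpt2 overlapped at log2 fold changes of -0.18, -0.07 and -0.197. Several PPARα responsive thioesterases lay below the model rats in every HME rat, Acot4 at 57.3, 28.7 and 55.2 against 15.1, 25.4 and 19.5 CPM, Acot2 at 38, 21 and 33.4 against 14.6, 18.4 and 15.2 and Acot3 at 23.9, 12.3 and 24.7 against 7.63, 11.2 and 11. None passed (edgeR FDR 0.217, 0.232 and 0.349), though the first pair did without model rat 2, the lowest model rat (FDR 0.0454 and 0.0455). In the family 8 of 9 members had a negative fold change, against 49.9% of all genes.

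Fatty acid carriers and lipoprotein genes held members that pointed either way. Of 6 fatty acid binding protein genes 5 had a negative fold change, against 49.9% of all genes. Their median of -0.385 was -0.094 without model rat 1. Fabp5, the epidermal fatty acid binding protein, fell from 29.5, 22.7 and 34.3 CPM in the model rats to 4.03, 5.68 and 4.91 in the HME rats (log2 fold change -2.56 ± 0.22, edgeR FDR 0.00261), while the control rats held 90.5, 97.1 and 55.1. Fabp7, the brain form, pointed upward at 84.5, 55.8 and 86.8 against 205, 65.3 and 156 and overlapped, with HME rat 2 at the model level. Tm6sf2, a membrane protein needed to lipidate very low density lipoprotein (VLDL), fell from 48.4, 46.5 and 52.8 to 22.1, 22.2 and 22.1 CPM (log2 fold change -1.15 ± 0.12, edgeR FDR 0.00867, at most 0.0745 without HME rat 1). The HME rats lay within 1 CPM of one another, and the call at 0.05 was lost without any 1 HME rat. Apoa4, a chylomicron and VLDL apolipoprotein, read 1853, 1085 and 1095 against 566, 411 and 564 CPM, and Apoa5, which promotes triglyceride clearance, 761, 553 and 648 against 1111, 1091 and 1422. They pointed in opposite directions without overlap and neither passed (log2 fold change -1.39 ± 0.25, edgeR FDR 0.0767, and log2 fold change 0.89 ± 0.18, edgeR FDR 0.125). Mttp, the transfer protein of VLDL assembly, and Sar1b, a small GTPase of its export, lay below in every HME rat (edgeR FDR 0.564 and 0.58). Of 22 apolipoprotein and VLDL genes 5 lay below and 1 above without overlap, against 7.45% and 6.48% of all genes. The list median of -0.17 went to -0.03 without model rat 1.

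**Figure D3:**
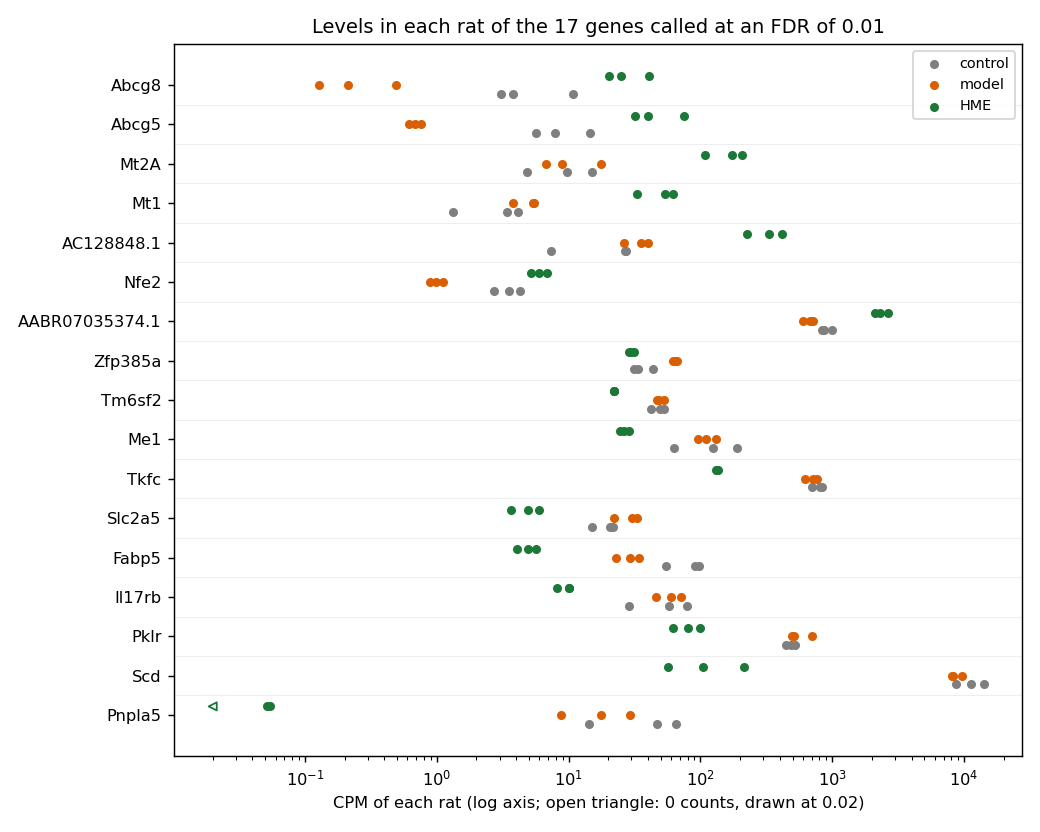
CPM of each rat (x axis, log scale) for the 17 genes called at an FDR of 0.01 (y axis, sorted by fold change), with 1 point per control, model and HME rat. In each gene the 3 HME points lie wholly to one side of the 3 model points, and for Scd, Pklr and Tkfc the control points lie with the model points.

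Abcg5 and Abcg8, the paired transporter subunits that pump sterols into bile, rose. They had few reads in the model rats. Abcg5 was at 0.685, 0.763 and 0.618 CPM there, on 16, 12 and 10 reads, at 75.2, 31.7 and 39.8 CPM in the HME rats and at 14.5, 5.62 and 7.95 in the control rats. Abcg8 was at 0.214, 0.127 and 0.494 CPM in the model rats, on 5, 2 and 8 reads, at 40.9, 20.3 and 25.1 CPM in the HME rats and at 10.9, 3.08 and 3.81 in the control rats. In both genes HME rat 1 was the highest, no group overlapped another, and both rose (log2 fold change 6.14 ± 0.41, edgeR FDR 0.00162, and log2 fold change 6.68 ± 0.45, edgeR FDR 0.00162). The genes lie head to head in mammals. No other of the 12 LXR targets and sterol export genes tested passed, where 0.452% of all genes did. The 7 regulators and other targets among them were split, 3 with a positive and 4 with a negative fold change and a median of -0.027. Soat2, a sterol acyltransferase, was the only one of these without overlap and lay below (60.6, 59.8 and 56.7 against 54.3, 51.1 and 36 CPM, edgeR FDR 0.72). Scarb1, the receptor for high density lipoprotein cholesterol, lay above the model rats in every HME rat (73.2, 86.7 and 76.6 against 115, 93.7 and 142 CPM, edgeR FDR 0.407).

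None of 24 genes of cholesterol synthesis and uptake passed. A positive fold change was found in 18 and 5 lay above without overlap, against 50.1% and 6.48% of all genes. Examples were Sqle, squalene epoxidase (46.4, 43.3 and 52 against 55.4, 79.6 and 103 CPM), and Tm7sf2, a sterol reductase (102, 60.6 and 167 against 250.4, 178 and 321), at edgeR FDRs of 0.382 and 0.419. HME rat 3 was the highest of its group for Sqle and Tm7sf2, and the list median of 0.28 went to 0.02 without it. The bile acid list had 17 of 22 members with a positive fold change and 8 above without overlap against 6.48% of all genes, again with none that passed. Cyp8b1, which sets the share of cholic acid, read 373, 367 and 502 CPM in the model rats, 790.2, 797 and 793 in the HME rats and 115, 196 and 132 in the control rats (log2 fold change 0.94 ± 0.16, edgeR FDR 0.0715). Abcc2, the canalicular exporter of conjugates, read 161, 336 and 363 against 999.9, 960.04 and 597 CPM, and its basolateral relative Abcc3 1.41, 2.29 and 2.29 against 4.47, 8.59 and 2.38 (edgeR FDR 0.141 and 0.49). The uptake carriers Slco1a1 and Slco1a4 were also above in every HME rat (FDR 0.559 and 0.571).

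The metallothionein genes Mt1 and Mt2A rose. Metallothioneins are small cysteine-rich proteins that bind zinc and copper and whose genes respond to metals and glucocorticoids. Mt1 read 5.44, 5.34 and 3.77 CPM in the model rats, 62.3, 32.9 and 53.4 in the HME rats and 3.44, 1.33 and 4.14 in the control rats, and Mt2A read 8.91, 17.6 and 6.73 CPM in the model rats, 207, 108 and 173 in the HME rats and 9.71, 4.83 and 15 in the control rats. Both rose (log2 fold change 3.35 ± 0.28, edgeR FDR 0.00261, and log2 fold change 3.88 ± 0.41, edgeR FDR 0.00867, at most 0.0952 without model rat 1). AC128848.1, a gene with no symbol, rose in the same pattern from 35.5, 40.2 and 26.3 to 418, 224 and 332 CPM (log2 fold change 3.25 ± 0.27, edgeR FDR 0.00261), and in each of these genes HME rat 1 was highest and HME rat 2 lowest of its group. Metallothionein copies are nearly identical, so reads can be shared between them. The zinc importer Slc39a4 lay below the model rats in every HME rat (76.8, 79.7 and 53.6 against 40.8, 43.4 and 38.5 CPM, edgeR FDR 0.161), and the other zinc carriers on the list did not pass. Of the 7 tested genes of the metallothionein and zinc list, 3 had a positive and 4 a negative fold change, with a median of -0.008. Among 14 glucocorticoid responsive genes, Mt2A rose and Angptl4 fell, against 0.119% and 0.333% of all genes. Klf9 (10.3, 33.3 and 21.4 against 62.2, 49.7 and 43.8 CPM) lay above without overlap. Sgk1 (17.2, 16 and 16.3 against 54.1, 48.4 and 12.3) overlapped, with HME rat 3 low. Its edgeR FDR was 0.564, 0.0158 without HME rat 3 and 0.9998 without HME rat 1.

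Drug-metabolizing genes mostly pointed upward. Cyp2b2, a phenobarbital-type cytochrome P450, rose from 40.04, 33.5 and 42.4 CPM in the model rats to 87.8, 123 and 101 in the HME rats (log2 fold change 1.43 ± 0.17, edgeR FDR 0.0148, at most 0.0739 without HME rat 3). Cyp2c24, another P450, was nearly silent in the model rats at 1, 0 and 6 reads and reached 212, 215 and 108 reads in the HME rats, or 11.5, 11.6 and 5.58 CPM against 0.719, 3.202 and 2.47 in the control rats (edgeR FDR 0.0148, at most 0.0745 without HME rat 1). Other forms lay above the model rats in every HME rat without passing. Cyp2e1, the ethanol-inducible form, read 1181, 1227 and 1113 against 3057, 2276 and 2013 CPM, Cyp3a23/3a1, the main PXR target of the rat, 1024, 514 and 540.3 against 1741, 1672 and 1619, and Cyp3a18 672, 617 and 626 against 1322, 954 and 888 (edgeR FDR 0.0736, 0.139 and 0.253, that of Cyp3a23/3a1 being 0.00657 without model rat 1). In the whole P450 family 34 of 50 genes had a positive fold change, against 50.1% of all genes. The family median was 0.18, 0.09 without HME rat 1 and 0.33 without model rat 3. Without overlap 13 lay above and 2 below, against 6.48% and 7.45% of all genes. The exceptions without overlap were Cyp1a1, the aryl hydrocarbon responsive form, at 11.3, 0.699 and 0.618 against 0.327, 0.324 and 0.207 CPM, where model rat 1 alone was high, and Cyp39a1, an oxysterol hydroxylase, at 245, 219 and 235 against 187, 169.8 and 176. Cyp1a1 had 6, 6 and 4 reads in the HME rats. It passed the count filter through the model rats alone, so its direction was fixed beforehand. Alas1, which starts the synthesis of the heme that P450s carry, lay below in every HME rat (100.03, 113 and 112 against 77.7, 80.5 and 65.2 CPM, edgeR FDR 0.257), and Por, their reductase, above (71.6, 84.9 and 77 against 94.5, 97.3 and 108, FDR 0.529), with the control rats at 246, 263 and 259 CPM for Por.

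Carboxylesterases, which cleave esters and many prodrugs, were higher in most members. Of 10 tested genes 9 had a positive fold change and 8 had every HME rat above the model rats, against 6.48% of all genes, with a median of 0.53 (range with 1 rat left out 0.403 to 0.65). Ces2c, at a low level, rose from 0.685, 0.636 and 0.556 to 2.67, 2.92 and 2.43 CPM (log2 fold change 2.08 ± 0.303, edgeR FDR 0.0366, at most 0.194 without HME rat 2), but lost the call in every fit with 1 rat left out. Ces2a (50.9, 51.1 and 99.7 against 140.2, 179.6 and 142 CPM) and Ces2e (39.4, 20.2 and 119.8 against 174, 286 and 208) did not pass (edgeR FDR 0.194 and 0.406), model rat 3 being nearest to the HME rats in both, and the FDRs without that rat were 0.0323 and 0.0478. Members of this family lie in clusters of close copies, and reads can be divided between them.

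Sulfotransferases of the Sult1c group rose or pointed upward. LOC100910057, a gene like Sult1c2, rose from 4.11, 3.94 and 2.59 to 15.3, 13 and 14.7 CPM (log2 fold change 2.003 ± 0.22, edgeR FDR 0.0105, at most 0.0745 without HME rat 1), and RGD1559960, another such gene, from 17.3, 13.4 and 15 to 35.8, 50.7 and 42.1 (log2 fold change 1.495 ± 0.18, edgeR FDR 0.0148, at most 0.08 without model rat 3). Sult1c2 itself read 1.16, 3.31 and 1.98 against 9.48, 8.59 and 10.5 CPM, Sult1c2a 68.2, 71 and 71.5 against 126, 93.5 and 178 and Sult1c3 215, 263 and 249 against 323, 293 and 332. None of these genes overlapped between the groups, and since they are close copies they are not independent observations. Outside this group Sult4a1, a brain-type member with no known substrate, had 46, 14 and 32 reads in the model rats and 0 in each HME rat, a level at least 30.2-fold lower when the HME group is set to 3 reads over its libraries together (edgeR FDR 0.0447, at most 0.144 without HME rat 1). Control rats held 9.79, 15.3 and 0.534 CPM of it, a wide spread. Sult2b1, a cholesterol sulfotransferase, read 8.69, 6.29 and 5.37 against 2.89, 1.24 and 1.08 CPM (FDR 0.119).

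In the glucuronosyltransferase family 3 of 5 genes had a positive fold change, against 50.1% of all genes, and none passed. Ugt2b17, one of them, read 227, 245 and 292 against 422, 547 and 589 CPM without overlap (log2 fold change 1.03 ± 0.18, edgeR FDR 0.0679). In the sulfotransferase family as a whole 5 of 9 had a positive fold change, and its median of 0.38 turned to -0.194 with no filter on low counts. In the glutathione S-transferase family 15 of 20 genes had a positive fold change (median 0.304) and 4 lay above without overlap, against 50.1% and 6.48% of all genes. None of them passed. Gstm2 read 719.5, 449 and 431 against 908, 890.04 and 1085 CPM, Gstm1 1137, 844 and 759 against 1437, 1614 and 1266, and Gsta5 465, 482 and 413 against 645, 584 and 652 (edgeR FDR 0.286, 0.384 and 0.384, that of Gstm2 being 0.0357 without model rat 1). Among 40 ABC transporters the pair Abcg5 and Abcg8 rose, against 0.119% of all genes, and none fell. Abcc8, the sulfonylurea receptor, lay below at 19.3, 12.5 and 15.6 against 6.97, 6.54 and 4.13 CPM (FDR 0.0736). Among 235 solute carriers 24 lay above and 25 below without overlap, against 6.48% and 7.45% of all genes, and 3 fell, against 0.333% of all genes. Besides Slc2a5 these were the monocarboxylate carrier gene Slc16a11 (8.78, 12.2 and 10.6 to 4.19, 3.41 and 3.15 CPM, log2 fold change -1.55 ± 0.22, edgeR FDR 0.0326, at most 0.189 without HME rat 2) and the urea transporter Slc14a1 (4.84, 2.798 and 1.73 to 0.218, 0.216 and 0.362 CPM, log2 fold change -3.53 ± 0.51, edgeR FDR 0.0355, at most 0.194 without HME rat 2). Slc14a1 passed the count filter through the model rats alone, so its direction was fixed beforehand.

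**Figure D4:**
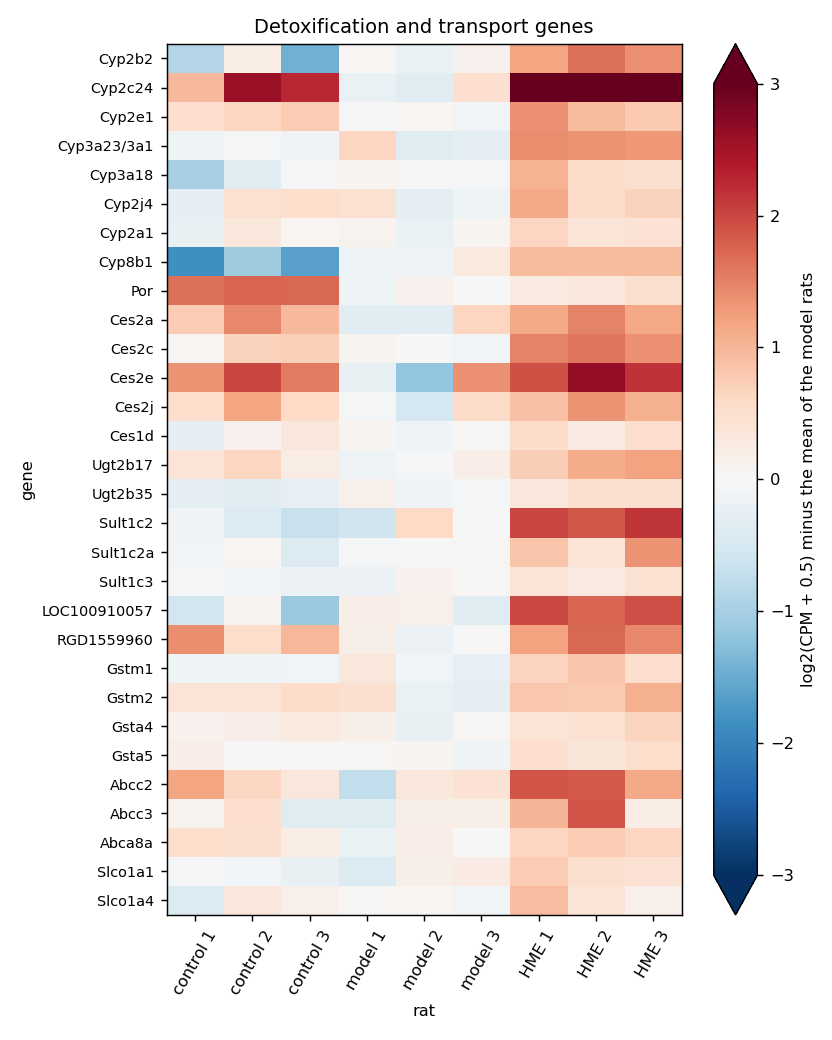
Log2(CPM + 0.5) of each rat minus the mean of the model rats (colour, clipped at ±3) for 30 detoxification and transport genes (rows) in 3 control, 3 model and 3 HME rats (columns). The genes shown were chosen as higher in HME, so the HME columns are red throughout, deepest for Cyp2c24, and model rat 3 is the reddest model rat for Ces2a, Ces2e and Ces2j.

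The arms of the clock pointed in opposite directions. The arm around Bmal1, with genes that peak together, had 5 of 6 members with a negative fold change, against 49.9% of all genes. Without overlap 3 lay below, against 7.45% of all genes, the median was -0.999 and none passed. Cry1, a repressor of the clock, read 19.1, 10.05 and 9.95 CPM against 5.94, 4.27 and 3.62, and Npas2, a partner of Bmal1, 26.8, 14.9 and 33.6 against 8.77, 12.9 and 8.47 (edgeR FDR 0.141 and 0.201, but without model rat 2 0.0452 for Npas2). Arntl, which encodes Bmal1, overlapped at 34.6, 17.1 and 36.7 against 11.5, 14.4 and 17.3 with model rat 2 low (edgeR FDR 0.367, 0.0483 without model rat 2 and 0.899 without HME rat 1). The opposite arm of Per, Dbp and the Rev-erb genes had 9 of 12 members with a positive fold change, against 50.1% of all genes. Its median of 0.42 went to 0.08 without HME rat 3. Nr1d1, which encodes Rev-erbα, spread over 13.2, 80.8 and 27.4 CPM in the model rats and 105, 101 and 83.8 in the HME rats (edgeR FDR 0.63, 0.0452 without model rat 2 and 0.9998 without HME rat 1). In model rat 2 Nr1d1 was the highest and Arntl the lowest of the model group. The hour at which each rat was killed is not given in the sources used here.

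No gene of the urea cycle and amino acid breakdown lists passed, and both lists held genes without overlap in either direction. In the urea cycle list, with 11 genes, none passed and the median was -0.04. Without overlap 3 lay above and 2 below, against 6.48% and 7.45% of all genes. Cps1, the entry enzyme of the urea cycle, read 2027, 2949.9 and 2251 against 4445, 3177 and 3979.8 CPM and Asl, the argininosuccinate lyase, 186, 178 and 168 against 357, 246 and 258, both without overlap, while Glul, glutamine synthetase, was below (463, 674 and 566 against 431, 366 and 388). Their edgeR FDRs were 0.385, 0.244 and 0.452. Of 51 genes of amino acid breakdown 7 lay above and 3 below without overlap, where 6.48% and 7.45% of all genes did so. None passed and the median was 0.04. The smallest p belonged to Bckdk, the kinase that switches off branched-chain ketoacid breakdown, at 44.1, 32.6 and 35.8 against 17.8, 17.5 and 23.9 CPM (FDR 0.107). Acadsb, a dehydrogenase of the isoleucine route, read 24.5, 66.1 and 69.3 against 109, 101 and 112 CPM, with model rat 1 far under the rest. Ethe1, a mitochondrial sulfur dioxygenase, fell from 88.5, 84.1 and 89.8 to 51.4, 46.9 and 46 CPM (log2 fold change -0.86 ± 0.12, edgeR FDR 0.0316, at most 0.194 without HME rat 2).

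Of the 24 genes of the insulin and growth hormone list 19 had a positive fold change, against 50.1% of all genes, and none passed. The median was 0.198, and without model rat 2 it was 0.38. Among the 12 that belong to the growth hormone arm, 8 had a positive fold change. Socs2, a feedback inhibitor that growth hormone induces, read 3.17, 1.65 and 4.76 CPM in the model rats and 71.6, 62.3 and 8.94 in the HME rats. Onecut1, the hepatocyte factor HNF6, read 1.58, 3.62 and 4.26 against 33.8, 49.5 and 4.24, and Cish, another feedback inhibitor, 2.698, 5.595 and 3.27 against 55.8, 8.38 and 1.24. HME rats 1 and 2 were far above the model group for the first pair, whereas HME rat 3 lay nearer to it, and for Cish only HME rat 1 stood out. None passed with all rats (edgeR FDR 0.0999, 0.253 and 0.624). The first pair did without HME rat 3 (FDR 0.0127 and 0.0212) but not without model rat 1 (FDR 0.5025 and 0.621). Igf1, the liver's main growth factor, was above in every HME rat (480.1, 466 and 631 against 644, 916 and 739 CPM, FDR 0.508). A like split of HME rats was seen in Slc25a30, a mitochondrial carrier, at 67.3, 50.2 and 11.2 CPM against 7.49, 8.97 and 9.08 in the model rats (edgeR FDR 0.217, 0.00715 without HME rat 3 and 0.619 without HME rat 1), and in Xbp1, a factor of the secretory stress response, at 279, 194 and 134 against 116, 128 and 102 (FDR 0.42).

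Cell cycle and immediate early genes mostly pointed downward. Of 25 cell cycle genes 22 had a negative fold change, 11 lay below without overlap against 7.45% of all genes, none passed and the median was -0.57. Many had few reads, such as Cdc20 (3.21, 3.62 and 4.82 against 0.817, 0.757 and 1.76 CPM), Mki67 (2.48, 5.09 and 2.47 against 0.218, 1.297 and 1.55) and Top2a (1.54, 4.07 and 2.59 against 0.327, 0.649 and 1.39), Cdc20 having 15, 14 and 34 reads in the HME rats. Ccnd1, the G1 cyclin, was better covered at 33.9, 40.8 and 69 against 19.1, 21.7 and 23.1 CPM (edgeR FDR 0.162). The list median was -0.86 with no filter on low counts. It was -0.23 when every library had to hold at least 10 counts, so that no gene passed through 1 group alone. The number of these genes without overlap was not counted under that filter. Fos, an immediate early gene, fell from 2.65, 2.99 and 2.1 to 0.4903, 0.432 and 0.672 CPM (log2 fold change -2.26 ± 0.34, edgeR FDR 0.0439, at most 0.218 without HME rat 1) on 9, 8 and 13 reads in the HME rats and lost the call in each fit with 1 rat left out. Fos was the only one of 19 listed immediate early genes that passed, where 0.452% of all genes did. Egr1 was 55.8, 19.8 and 9.02 against 6.76, 4.27 and 13.6 CPM and overlapped, with model rat 1 high.

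Of the immune and acute phase lists, only the inflammatory one held a gene that passed. Il17rb, a subunit of the receptor for IL-25, fell from 59.5, 46.2 and 71.3 CPM in the model rats to 10.02, 10.1 and 8.16 in the HME rats (log2 fold change -2.65 ± 0.196, edgeR FDR 0.00186), with an FDR of at most 0.0175 without HME rat 1, and the control rats spread over 28.8, 79.7 and 57.4. It was the only one of 22 inflammatory genes that passed, where 0.452% of all genes did, and the list median was -0.03. Cxcl1, a neutrophil chemokine, was variable in the model rats at 6.21, 12.8 and 1.297 against 1.63, 0.541 and 1.55 CPM. Of 29 interferon-stimulated genes 22 had a negative fold change and 4 lay below without overlap, against 49.9% and 7.45% of all genes. None passed, and the median of -0.201 was 0.17 without model rat 2. Bst2, the tetherin gene, read 178, 148 and 182 against 96.5, 115 and 136 CPM (edgeR FDR 0.406). Lgals9, a galectin, fell from 145, 162 and 146 to 84.9, 80.05 and 83.7 CPM (log2 fold change -0.86 ± 0.12, edgeR FDR 0.0334, at most 0.201 without HME rat 2). In the positive acute phase list, with 18 genes, 2 lay above and 3 below, and in the complement and coagulation list, with 40, 6 and 1, where 6.48% and 7.45% of all genes did so. Their medians were 0.07 and 0.08, and none passed in either. Among 30 matrix genes none passed, and the median of 0.09 went to -0.06 without model rat 1.

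Housekeeping families showed small shared shifts that shrank without 1 library. 80 of 84 respiratory chain and ATP synthase genes, 72 of 80 cytosolic and 68 of 74 mitochondrial ribosomal protein genes and 45 of 47 proteasome genes had a negative fold change, against 49.9% of all genes. In the same order 15, 6, 13 and 14 of them lay below without overlap, against 7.45% of all genes. Above lay 0, 0, 1 and 0, against 6.48% of all genes. The medians of the families were -0.21, -0.205, -0.19 and -0.16, and no member passed. Without model rat 1, the library that stood apart, they became -0.03, -0.01, -0.03 and -0.09. Atp5mc1, which encodes the c ring of the ATP synthase, was the member with the smallest p among the respiratory genes, at 215, 141 and 144 against 76.9, 96.8 and 105 CPM (edgeR FDR 0.224).

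**Figure D5:**
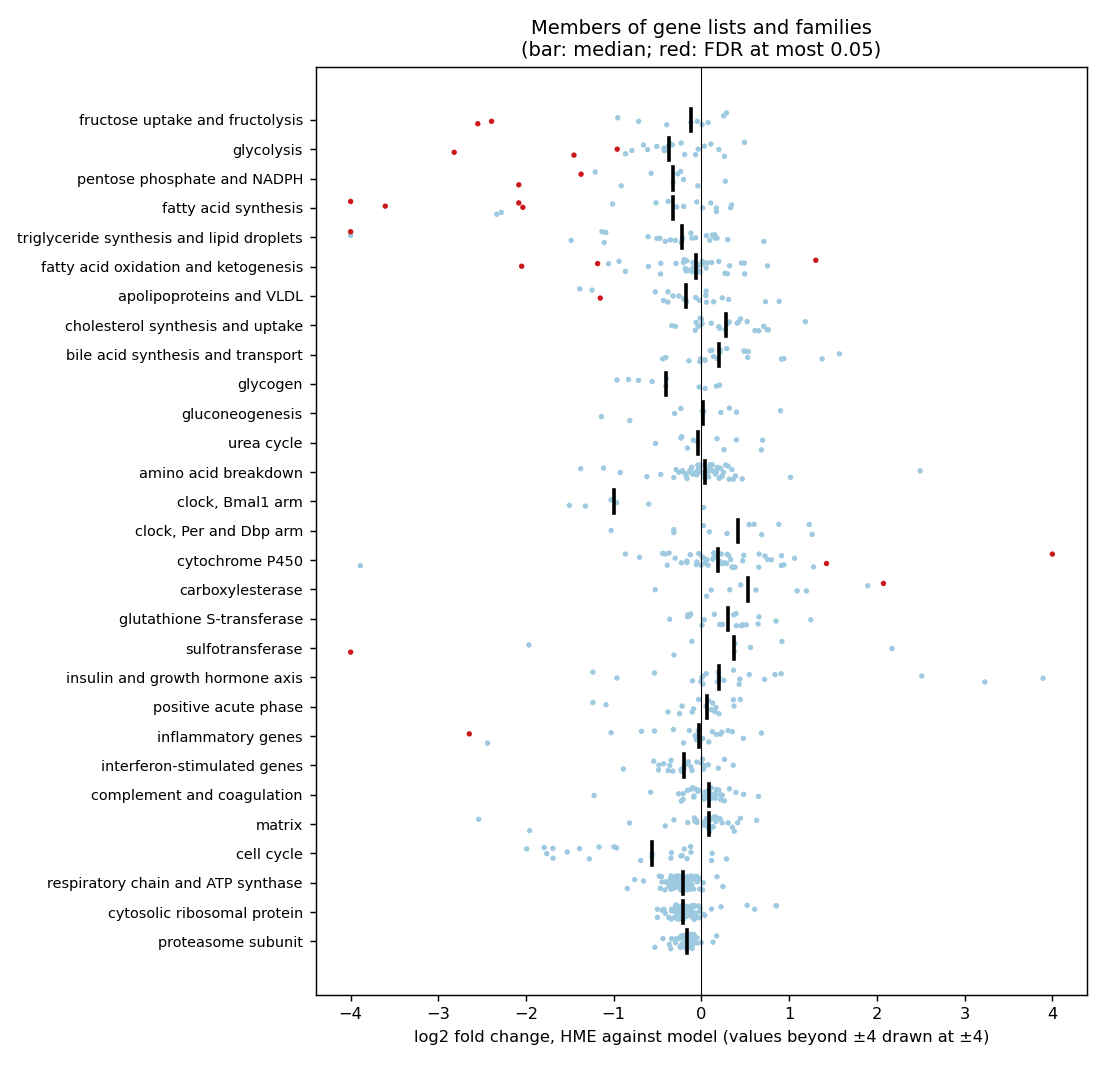
Log2 fold change of HME against model (x axis) for each tested member of 29 gene lists and families (rows), with the median as a bar and genes at an FDR of at most 0.05 in red. The medians lie below 0 for glycolysis, glycogen, the Bmal1 arm of the clock and the cell cycle and above 0 for carboxylesterases and cholesterol synthesis, and the red points gather in the carbohydrate and fat rows.

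Called genes outside these pathways had varied functions. AABR07035374.1, a gene with no symbol, rose from 598, 720.03 and 679 CPM to 2300.2, 2650.2 and 2109 (log2 fold change 1.82 ± 0.16, edgeR FDR 0.00311), with the control rats at 995, 871 and 837. Nfe2, a blood-lineage transcription factor, rose from 1.11, 0.8902 and 0.988 to 5.99, 6.86 and 5.17 CPM (log2 fold change 2.57 ± 0.26, edgeR FDR 0.00611, at most 0.0554 without HME rat 2), while the red blood cell markers summed to 203 to 351 CPM in the model rats and 206 to 338 in the HME rats. Pla2g12a, a secreted phospholipase, rose from 4.07, 4.83 and 1.297 to 39.1, 19.4 and 26.7 (log2 fold change 3.05 ± 0.45, edgeR FDR 0.0425, at most 0.177 without model rat 1), and Ptprn, a protein of secretory granules, from 9.93, 8.58 and 8.83 to 18.1, 16.9 and 17.9 (log2 fold change 0.95 ± 0.15, edgeR FDR 0.0477, at most 0.22 without HME rat 1). In none of these did the groups overlap.

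On the lower side Zfp385a, a zinc finger gene, fell from 62.1, 63.7 and 65.9 to 28.7, 31.2 and 29.5 CPM (log2 fold change -1.101 ± 0.12, edgeR FDR 0.00867, at most 0.0745 without HME rat 1) and lost the call at 0.05 without any 1 HME rat. Adora1, an adenosine receptor, fell from 25.8, 27.8 and 34.3 to 9.97, 12.2 and 7.08 (log2 fold change -1.59 ± 0.22, edgeR FDR 0.0334, at most 0.175 without HME rat 1), and Cacna2d4, a calcium channel subunit, from 16.6, 18.6 and 20.7 to 7.14, 5.35 and 4.598 (log2 fold change -1.71 ± 0.21, edgeR FDR 0.0172, at most 0.114 without HME rat 2). Prss32, a serine protease, fell from 10.1, 11.6 and 20.2 to 2.56, 1.03 and 1.34 (log2 fold change -3.08 ± 0.41, edgeR FDR 0.027, at most 0.123 without HME rat 3). Wfdc21, a small secreted protein, fell from 104, 69.9 and 57.9 to 29, 23.8 and 31.6 (log2 fold change -1.46 ± 0.23, edgeR FDR 0.0477, at most 0.218 without HME rat 1), and Rmdn2, a microtubule regulator, from 119.8, 90.5 and 131 to 45.9, 53 and 59.6 (log2 fold change -1.11 ± 0.18, edgeR FDR 0.0495, at most 0.22 without HME rat 1). For these last genes the control rats, at 22.7, 32.4 and 26 CPM for Wfdc21 and 54, 68.9 and 54.5 for Rmdn2, were nearer to the HME rats. The others that fell were Tbkbp1, Mybph, Ctif, Pdlim2, Lhx8, Mycl, Ntf3, Tmem252, Mtmr7, RGD1309534, RGD1311739 and AABR07050652.1, with log2 fold changes from -3.09 to -0.91 and edgeR FDRs from 0.0204 to 0.0477, each of which lost the call in at least 1 fit with 1 rat left out. Mycl, a MYC family gene, read 2.18, 3.05 and 4.201 CPM in the model rats and 0.4903, 0.703 and 0.362 in the HME rats.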

How the data were processed

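Raw counts per gene were deposited by the authors, whose processing notes name HISAT2 for alignment to rat build Rnor_6.0 and HTSeq 0.6.1 for counting, set to ignore strand, so overlapping and antisense genes cannot be told apart. A second deposited table of assembled transcripts was not used. The 2 groups were compared with edgeR 4.0.16 in R 4.3.3: genes with at least 10 counts in at least 3 of 6 libraries, TMM normalization, robust glmQLFit and the two-sided glmQLFTest, with Benjamini-Hochberg FDR. CPM were scaled by TMM factors over the 9 libraries, and fold changes and standard errors (fold change over the root of F) came from the fit. Total counts were 14922429 to 26837227 in the 6 libraries compared. How much of the spread of a gene was counting error was not tested. The labels number the libraries of a group without naming the animals, so p-values measure the spread between these samples.

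Genes could be named where called at an FDR of 0.05, where among the 3 smallest p-values of a list or family with at least 5 tested members, or in pathway order. Further genes, such as Cish, Sgk1, Slc25a30, Acadsb, Ces2e, Cyp39a1, Sult1c3, Mki67, Top2a and those in the other observations, were added after their values were seen. The comparison, the gene lists and the families were chosen with earlier results of these data known. Of the listed symbols 69 were not matched in the table. No set test was run. Some members of the lists are counted but not reported here by name. The reference at hand was of the mouse, so promoter sequences and coordinates are not used here. The alternatives were library size alone, DESeq2 size factors, other filters on low counts, counts thinned to the smallest library, no minimum fold change, DESeq2 1.42.0 itself, all 9 libraries in one fit, the replicate block and leaving out each rat in turn.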

Additional observations from a re-analysis of the deposited data

How the results depend on the processing

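Only 3 rats a group set the spread, and genes with few reads carried wide errors. At an FDR of 0.01 the numbers of genes higher and lower in HME were 7 and 10. They were 4 and 7 with library size alone, 12 and 26 with no filter on low counts, 41 and 106 in DESeq2 and 7 and 13 with all 9 libraries in one fit. At 0.05 the numbers were 15 and 42, and they became 26 and 79 with no filter, 11 and 26 with at least 10 counts in all 6 libraries, 75 and 141 in DESeq2 and 23 and 59 with all 9 libraries. The cause was not tested. With 1 rat left out they ran from 1 to 4 higher and 0 to 9 lower at 0.01, and from 7 to 20 higher and 8 to 48 lower at 0.05. Genes without overlap, 817 above and 939 below, ran from 1171 to 1823 and from 1361 to 1884, as 5 rats overlap less often by construction. The numbering of the rats did not pair them, with correlations of same-numbered deviations of -0.192, -0.032 and -0.136 and no rat closest to its own number, and the replicate block gave 2 and 5 genes at 0.01 and 6 and 10 at 0.05. The cell cycle median of -0.566 was -0.862 with no filter and -0.234 with at least 10 counts in all 6 libraries, and the sulfotransferase median of 0.375 was -0.194 with no filter, where more genes enter. With 1 rat left out, medians ran from -0.253 to -0.026 for fructose uptake, -0.336 to 0.165 for interferon-stimulated genes, -0.135 to 0.098 for the urea cycle, -0.092 to 0.13 for gluconeogenesis, -0.02 to 0.115 for amino acid breakdown, -0.103 to 0.105 for inflammatory genes, -0.015 to 0.098 for the positive acute phase, 0.028 to 0.132 for complement and coagulation, 0.123 to 0.402 for sulfotransferases and 0.118 to 0.381 for glutathione S-transferases. Among single genes named, the direction turned only for Hadha (-0.156 to 0.0429), positive without model rat 1, where it did not pass.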

Other observations

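Genes on no list, chosen after their values were seen among those without overlap and with at least a 2-fold difference, included genes of several kinds. That rule held 267 genes (2.12% of those tested), 105 (0.833%) above and 162 (1.29%) below. Cenpf and Ckap2, both genes of mitosis, were lower in HME, Cenpf at 0.642, 1.34 and 1.11 CPM in the model rats and 0.0545, 0.162 and 0.103 in the HME rats and Ckap2 at 0.942, 2.798 and 1.42 against 0.272, 0.216 and 0.155 (edgeR FDR 0.079 and 0.0945). The HME rats had 1, 3 and 2 reads of Cenpf and 5, 4 and 3 of Ckap2. Both passed the count filter through the model rats alone, so with this selection their direction was fixed beforehand. Leap2, a liver peptide that blocks the ghrelin receptor, read 122, 75.5 and 81.3 CPM in the model rats and 24, 30.6 and 45.9 in the HME rats (edgeR FDR 0.0923). Lpl, lipoprotein lipase, which adult liver hardly expresses, read 7.49, 7.76 and 11.8 against 3.98, 3.95 and 4.55 (FDR 0.141). Hcn3, a pacemaker channel, read 25, 6.87 and 23.8 against 0.926, 2.65 and 1.19 (FDR 0.0534). Rgs16, a regulator of G protein signalling, was variable in both groups at 36.1, 20.5 and 193 CPM in the model rats and 0.708, 0.541 and 7.75 in the HME rats (FDR 0.253).

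Upward, Aox3, an aldehyde oxidase, read 63.4, 53.3 and 92.7 CPM in the model rats, 132, 158 and 151 in the HME rats and 232, 177 and 198 in the control rats (edgeR FDR 0.101). Abhd2, a serine hydrolase, read 36.6, 79 and 84 against 212, 371 and 217 (FDR 0.0736), Bdh2, a short-chain dehydrogenase, 5.096, 4.71 and 4.695 against 11.2, 8.81 and 11.5 (FDR 0.0623), and Ptger3, a prostaglandin E receptor, 33, 49.8 and 25.5 against 86.5, 82.3 and 78.2 (FDR 0.0991). None of these genes passed an FDR of 0.05 with all rats, but Ptger3 (0.0182 without model rat 2), Hcn3 (0.0117 without model rat 2) and Aox3 (0.0492 without model rat 3) did with 1 rat left out.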
